A study of Canis lupus familiaris with 8 samples.

Results

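The genes described here are the molecular chaperones and co-chaperones of dog retina, chosen by gene symbol alone: 92 of the 12824 genes in the deposited expression table carry a symbol of the HSPA, HSPB, HSPH1, HSPD1, HSPE1, HSP90, DNAJ, BAG, CCT, TCP1, prefoldin or FKBP series, or are STIP1, AHSA1 or CHORDC1. They fall into 9 HSP70 genes, 3 HSP110 genes, 3 HSP90 genes, 3 HSP90 co-chaperones, 37 DNAJ genes, 9 cytosolic chaperonin genes, 2 mitochondrial chaperonin genes, 4 prefoldin genes, 5 small heat shock protein genes, 6 BAG genes and 11 FKBP genes. The tissue was retina of male wild-type Beagles (Canis lupus familiaris) aged 31 weeks. PFA-fixed retina (4 libraries) came from left eyes treated with 4% paraformaldehyde (PFA, a crosslinking fixative) over 3 h and then at 4 °C with 2% PFA over 24 h, cryoprotected in sucrose of 15% and of 30% (24 h in either) and frozen in OCT medium. Fresh-frozen retina (4 libraries) came from right eyes embedded in OCT with neither fixative nor sucrose. RNA of the fixed tissue was taken with an RNeasy FFPE kit after 18 h with proteinase K at 56 °C and received a second DNase treatment, and RNA of the frozen tissue was taken with an RNeasy Plus Micro kit. All libraries were made with the same stranded total RNA kit (SMARTer, Pico Input). Preparation, eye side and extraction kit are therefore confounded and cannot be told apart. The labels do not say which libraries share a dog, nor whether these libraries were taken by the laser capture that the title of the series mentions, so the p-values measure only the spread between these libraries.

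Chaperones hold unfolded proteins away from aggregation and pass them along a chain of machines. HSP70 binds short hydrophobic stretches and is loaded by J-domain proteins (the DNAJ genes), and HSP110 and BAG proteins release its nucleotide. HSP90 takes clients from HSP70 with the help of STIP1, AHSA1 and FKBP4. Prefoldin hands actin and tubulin to the ring-shaped cytosolic chaperonin built from TCP1 and the CCT subunits, while HSPD1 and HSPE1 form the chaperonin of mitochondria. Photoreceptors renew their outer segments throughout life, and in mammals the assembly of their phosphodiesterase depends on AIPL1, a relative of the FKBP co-chaperones.

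Values are log2 CPM, the log2 of counts scaled by the authors for each library. A change is the mean of the PFA-fixed libraries minus that of the fresh-frozen ones. A gene counts as called when limma's adjusted p (Benjamini-Hochberg over all genes) was under 0.05. The effective depth was 11030000 to 15310000 reads in PFA-fixed libraries and 21610000 to 22810000 in fresh-frozen libraries. No lengths are given, so levels are compared between libraries and not between genes. All 22 rod markers were measured, with a summed level of 38012 to 43301 CPM in PFA-fixed and 34056 to 39902 CPM in fresh-frozen libraries. All 11 sclera and fibroblast markers were lower in fixed retina, with a sum of 196 to 221 CPM in PFA-fixed against 8582 to 11542 CPM in fresh-frozen libraries. Of the other lists, all 9 pigment epithelium, all 8 measured pericyte and smooth muscle and all 7 measured endothelial markers were also lower. Fresh-frozen replicate 1 stood apart in striated muscle markers (TTN, MYH7 and CKM, the 3 measured of 9), at 932 CPM against 33.0 to 42.6 CPM in the other fresh-frozen libraries and 58.8 to 70.6 CPM in PFA-fixed libraries.

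Chaperone genes split in both directions. In PFA-fixed retina 27 of the 92 genes were called higher (29.3%) and 41 lower (44.6%), where 33.9% of all genes were called higher, 34.7% lower and 68.7% in either direction. The other 24 were not called. With a minimum change of 1.5-fold in the test itself (limma treat), it called 8 chaperone genes higher (8.70%) and 12 lower (13.0%), against a background of 11.9% and 14.1% of all genes (26.1% in either direction). The libraries of the groups did not overlap for 20 genes that were higher and 40 that were lower, where 31.3% of all genes were higher without overlap, 31.6% lower and 62.9% either. The median change of the chaperone genes was -0.17, beside -0.02 for all genes. Changes ran from -3.54 for HSPB7 to 2.24 for DNAJC12, and 77 of 92 (83.7%) stayed within 2-fold, as did 75.6% of all genes. In libraries of mixed cells, fewer cells of a type and less RNA per cell cannot be told apart, here and in each result that follows. Scaling the libraries to the mean of the rod markers moved the median of all genes to -0.28 and left 12 chaperone genes called higher and 55 lower. Of all 12824 genes, it called 2629 higher and 5984 lower. With this rod scaling 15 genes lost their call as higher: HSPA4L, DNAJA3, DNAJA4, DNAJB5, DNAJC9, DNAJC15, DNAJC18, DNAJC25, DNAJC28, CCT6A, PFDN1, PFDN2, BAG1, FKBP7 and FKBP15. It called a further 14 lower: HSPA4, HSPA12A, HSP90AB1, HSP90B1, DNAJB2, DNAJB12, DNAJC1, DNAJC4, DNAJC5, DNAJC13, DNAJC14, PFDN6, BAG4 and FKBP11. Of all calls in the table, 49.4% were higher with the deposited scaling and 30.5% with the rod scaling.

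**Figure D1:**
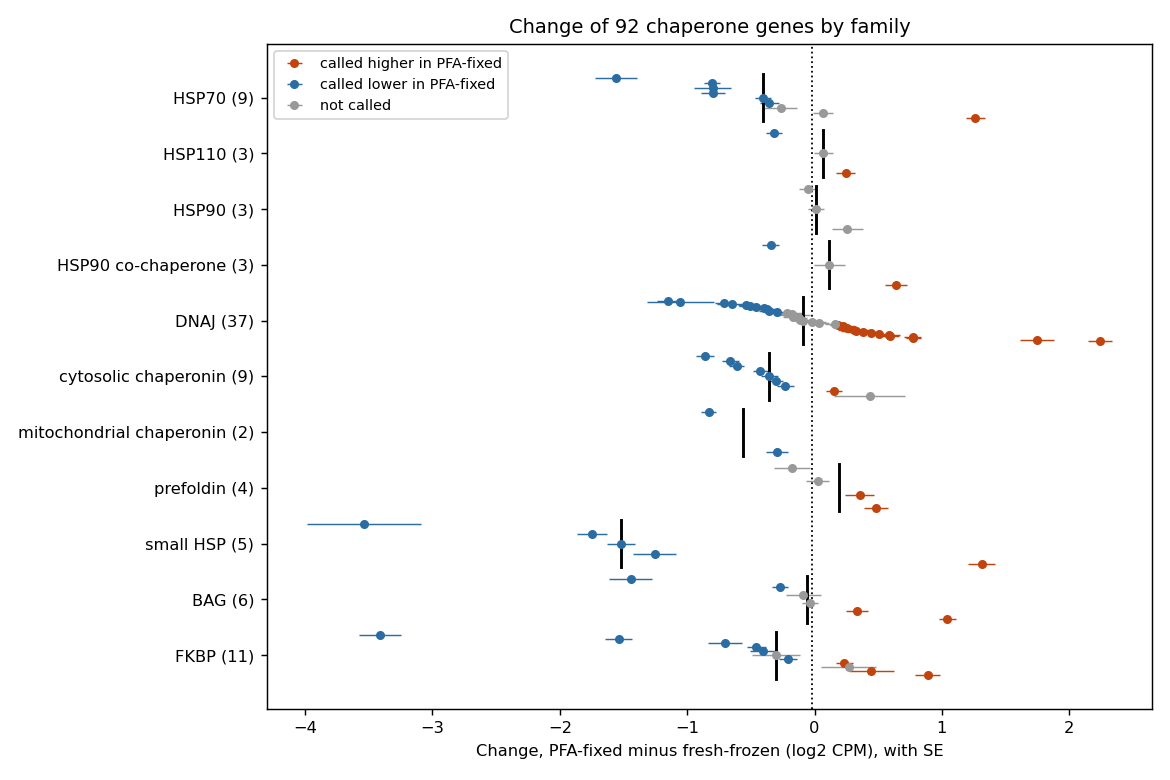
Change of each of the 92 chaperone genes in PFA-fixed minus fresh-frozen retina (log2 scale), grouped by family. Each point is a gene with its SE, coloured by whether limma called it higher, lower or not, vertical bars are family medians, and the dotted line is the median of all genes (-0.02). The small heat shock protein group has the lowest median (-1.52), and single genes of the DNAJ, HSP70, BAG and small heat shock groups lie above 1.

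The HSP70 group was called lower in fixed retina for 6 of its 9 genes (34.7% of all genes were), and 1 gene was called higher (33.9% of all genes). Its median change was -0.41. Summed over the 9 genes, HSP70 took 0.178% to 0.191% of the CPM of PFA-fixed libraries and 0.241% to 0.263% of fresh-frozen libraries, with no overlap. HSPA8, the constitutive cytosolic HSP70, stood at 9.99, 10.02, 10.21 and 10.05 log2 CPM in PFA-fixed libraries, against 10.36, 10.50, 10.50 and 10.34 in fresh-frozen ones. Every fixed library was below every frozen one. The change was -0.36 ± 0.07 (SE, n = 4 each), with an adjusted p of 0.00111 in limma.

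HSPA5 (BiP), the HSP70 of the endoplasmic reticulum, had 7.74, 7.66, 7.64 and 7.70 log2 CPM in PFA-fixed and 8.51, 8.44, 8.63 and 8.38 in fresh-frozen libraries. The groups were separate by more than the spread within either, and the change was -0.80 ± 0.07 (adjusted p = 5.58e-07 in limma). HSPA9 (mortalin), which drives import into mitochondria, changed by -0.41 (adjusted p = 0.000111). HSPA13, a microsomal member, changed by -0.79 (adjusted p = 1.58e-05). HSPA1L, a close copy of the heat-inducible HSPA1 genes, changed by -0.80 (adjusted p = 0.000407), and its reads may be shared with those copies, which were not analysed here.

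HSPA12B, a divergent member known from blood vessel endothelium, had 2.06, 2.65, 2.03 and 2.16 log2 CPM in PFA-fixed and 3.93, 3.70, 3.67 and 3.82 in fresh-frozen libraries. PFA-fixed replicate 2 was the highest of the fixed libraries and was still 1 log2 unit below the frozen ones. The change was -1.56 ± 0.16 (adjusted p = 5.30e-06 in limma). The 7 endothelial markers summed to 239 to 284 CPM in PFA-fixed and 694 to 959 CPM in fresh-frozen libraries; their part in the result was not tested. The related HSPA12A did not pass the test (-0.27, adjusted p = 0.0921; -0.36 at its lowest when single libraries were left out, called without PFA-fixed replicate 4, adjusted p = 0.0238). HSPA2, known for its role in sperm, stood at 5.91 to 6.12 log2 CPM in PFA-fixed and 5.85 to 6.11 in fresh-frozen libraries and was not called (0.07, adjusted p = 0.472).

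HSPA14 was the only HSP70 gene called higher. It works at the ribosome with the J-domain protein DNAJC2. Its level was 7.38, 7.51, 7.47 and 7.57 log2 CPM in PFA-fixed libraries and 6.04, 6.27, 6.32 and 6.25 in fresh-frozen ones. The fixed libraries were all above the frozen ones by more than 1 log2 unit. The change of 1.26 ± 0.07 is a 2.40-fold difference (adjusted p = 4.43e-08 in limma). DNAJC2, chosen after its values were seen, was higher as well, by 0.58 (adjusted p = 0.000166), and the log2 ratio of HSPA14 to DNAJC2 was 1.26 ± 0.16 in PFA-fixed and 0.58 ± 0.12 in fresh-frozen libraries (SD, n = 4 each).

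The nucleotide exchange factors of the HSP110 group gave 1 call in each direction. HSPH1, the heat-inducible member, was lower by -0.32 ± 0.06 (adjusted p = 0.000837 in limma), with 6.0 to 6.10 log2 CPM in PFA-fixed and 6.30 to 6.45 in fresh-frozen libraries. HSPA4L was called higher by 0.24 (adjusted p = 0.0140), although fresh-frozen replicate 2 (8.63) lay among the fixed libraries (8.55 to 8.72), and the sign turned to -0.02 with the rod scaling. HSPA4 was not called (0.07, adjusted p = 0.436).

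None of the 3 HSP90 genes was called by limma without a replicate block on the deposited scaling, and 0 of 3 had an unadjusted p under 0.05. HSP90AA1, the stress-inducible cytosolic form, had 11.75, 11.87, 12.25 and 12.17 log2 CPM in PFA-fixed and 11.57, 11.81, 11.90 and 11.73 in fresh-frozen libraries. PFA-fixed replicates 3 and 4 stood above all frozen libraries, and replicates 1 and 2 stood among them. The change was 0.26 ± 0.12 (adjusted p = 0.0812 in limma), 0.34 and called without PFA-fixed replicate 1 (adjusted p = 0.0328), called with the replicate number as a block (adjusted p = 0.0265) and after centring on the library medians, and -0.01 with the rod scaling. HSP90AB1, the constitutive cytosolic form, changed by -0.05 ± 0.07 (adjusted p = 0.533), and was called lower by -0.32 with the rod scaling (adjusted p = 0.0195). HSP90B1 (GRP94), the form of the endoplasmic reticulum, changed by 0.01 ± 0.06 (adjusted p = 0.867), and was called lower by -0.19 after quantile normalization and by -0.25 with the rod scaling.

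The log2 ratio between HSPA5 and HSP90B1, both resident in the endoplasmic reticulum, does not change when a whole library is shifted by a constant. It was -1.39 ± 0.10 in PFA-fixed and -0.58 ± 0.07 in fresh-frozen libraries (SD, n = 4 each). The 4 fixed libraries gave -1.28, -1.51, -1.44 and -1.34, and the 4 frozen ones gave -0.60, -0.61, -0.47 and -0.62. HSP90AA1 relative to HSPA8 was 1.94 ± 0.16 in PFA-fixed and 1.33 ± 0.09 in fresh-frozen libraries. Both ratios were separate between the groups, so the HSP90 and HSP70 genes of these pairs changed unequally.

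**Figure D2:**
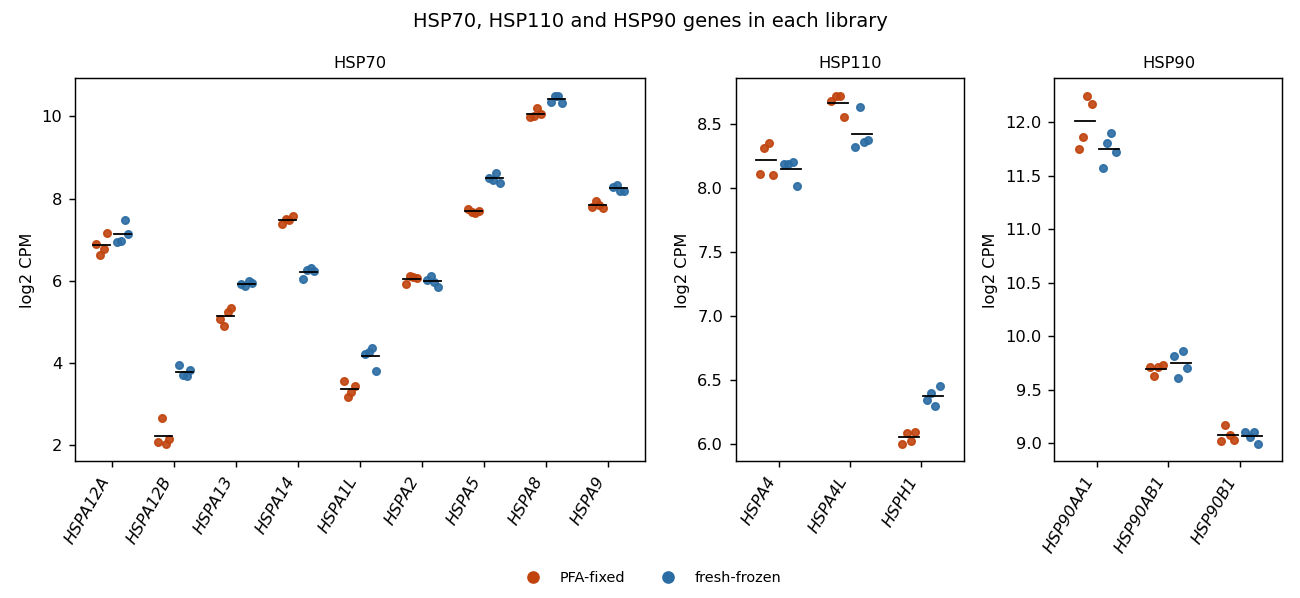
Level (log2 CPM) of HSP70, HSP110 and HSP90 genes in each library, PFA-fixed left of fresh-frozen for each gene, with 4 points a group and the group mean as a bar. HSPA5, HSPA8 and HSPA12B lie lower and HSPA14 higher in every PFA-fixed library, and the groups overlap for all 3 HSP90 genes.

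Among the HSP90 co-chaperones, CHORDC1, a heat-inducible binder of HSP90, was higher with 6.05, 6.04, 6.01 and 5.75 log2 CPM in PFA-fixed and 5.46, 5.33, 5.25 and 5.27 in fresh-frozen libraries. The change was 0.64 ± 0.09 (adjusted p = 4.71e-05 in limma), with no overlap. STIP1 (HOP), which joins HSP70 to HSP90, was lower by -0.34 ± 0.07 (adjusted p = 0.000575), with 6.99 to 7.13 log2 CPM in PFA-fixed and 7.30 to 7.52 in fresh-frozen libraries. AHSA1, the activator of the HSP90 ATPase, was not called (0.12, adjusted p = 0.405). Its frozen libraries fell apart into 6.14 and 6.05 for replicates 1 and 3 and 5.59 and 5.64 for replicates 2 and 4, while the fixed ones held between 5.90 and 6.03.

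The DNAJ genes, which choose the clients of HSP70, were called in both directions: 15 of 37 higher (40.5%, with 33.9% over all genes) and 12 lower (32.4%, with 34.7% over all genes), and the 10 others were not called. These shares are near those of all genes. The median change was -0.09 with the deposited scaling, 0.06 after quantile normalization and -0.36 with the rod scaling; its sign depended on the scaling. Past 1.5-fold, 4 were higher (10.8%, with 11.9% over all genes) and 1 was lower (2.70%, with 14.1% over all genes). The 4 higher ones are all of class C, which holds 25 of the 37 genes. Summed, the DNAJ genes took 0.255% to 0.260% of CPM in PFA-fixed and 0.261% to 0.273% in fresh-frozen libraries. Their mean log2 CPM was 5.73 ± 0.02 in PFA-fixed and 5.68 ± 0.04 in fresh-frozen libraries (SD, n = 4 each). The lower share therefore does not show lower levels.

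DNAJC12 had the largest rise of all 92 genes. It is known in humans as the partner of the aromatic amino acid hydroxylases, among them tyrosine hydroxylase of dopaminergic cells. Its level was 6.69, 6.52, 6.62 and 6.65 log2 CPM in PFA-fixed and 4.16, 4.33, 4.44 and 4.58 in fresh-frozen libraries. All fixed libraries lay about 2 log2 units above the frozen ones, a change of 2.24 ± 0.09 or 4.73-fold (adjusted p = 3.54e-09 in limma). DNAJC17, a nuclear J-domain protein linked to splicing, had 5.19, 5.36, 5.14 and 4.80 log2 CPM in PFA-fixed and 3.25, 3.26, 3.36 and 3.63 in fresh-frozen libraries. PFA-fixed replicate 4 and fresh-frozen replicate 4 were nearest to each other and still more than 1 log2 unit apart, and the change was 1.75 ± 0.14 (adjusted p = 4.25e-07).

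DNAJC21, which acts in ribosome assembly, was at 6.92 to 7.06 log2 CPM in PFA-fixed and 6.20 to 6.25 in fresh-frozen libraries (change 0.77 ± 0.06, adjusted p = 3.33e-07 in limma). DNAJC24, an enzyme partner in diphthamide synthesis on elongation factor 2, was at 6.48 to 6.56 in PFA-fixed and 5.64 to 5.84 in fresh-frozen libraries (0.77 ± 0.07, adjusted p = 1.11e-06). Both ranges were narrow and far apart. DNAJC7, which bridges HSP70 and HSP90, and DNAJC9, a histone co-chaperone, were chosen after their values were seen and were higher by 0.51 (adjusted p = 3.15e-05) and 0.44 (adjusted p = 0.000947). DNAJC7 kept its call with the rod scaling, and DNAJC9 did not (0.18, adjusted p = 0.0862).

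All 3 class A genes were called higher, where 33.9% of all genes were. DNAJA1, a main cytosolic partner of HSPA8, had 7.66, 7.78, 7.72 and 7.78 log2 CPM in PFA-fixed and 7.0, 7.18, 7.23 and 7.15 in fresh-frozen libraries. The change was 0.60 ± 0.07 (adjusted p = 7.46e-06 in limma), without overlap, and opposite in sign to that of HSPA8. DNAJA3, of mitochondria, and DNAJA4 each changed by 0.23 (adjusted p = 0.0386 and 0.0287) with overlapping groups, and both signs turned with the rod scaling, to -0.04 and -0.03. The call of DNAJA3 ended without any of PFA-fixed replicates 1, 2 or 3 or fresh-frozen replicates 1, 3 or 4, with a highest adjusted p of 0.114. That of DNAJA4 ended without PFA-fixed replicate 2 or 4 or fresh-frozen replicate 2 or 4, with a highest adjusted p of 0.0830.

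In class B, 6 of 9 genes were called lower and 1 higher, where 34.7% of all genes were called lower and 33.9% higher. DNAJB4, a cytosolic member close to DNAJB1, had 4.05, 4.12, 4.26 and 4.22 log2 CPM in PFA-fixed and 5.26, 5.38, 5.25 and 5.37 in fresh-frozen libraries. It was lower in every fixed library by about 1 log2 unit (change -1.15 ± 0.09, adjusted p = 3.14e-07 in limma). DNAJB1, the heat-inducible partner of HSP70, was lower by -0.36 (adjusted p = 0.00139), with 5.60 to 5.77 in PFA-fixed and 5.87 to 6.11 in fresh-frozen libraries. DNAJB9 and DNAJB11, both partners of BiP in the endoplasmic reticulum, were lower by -0.65 (adjusted p = 0.000461) and -0.46 (adjusted p = 0.000194). DNAJB14, anchored in the membrane of that organelle, was lower by -0.30 (adjusted p = 0.00629).

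DNAJB6, a suppressor of protein aggregation, was lower by -0.17 (adjusted p = 0.0277), a call that ended without PFA-fixed replicate 1 or 2 or fresh-frozen replicate 2 or 3 (highest adjusted p 0.0750). DNAJB2, the neuronal HSJ1, was not called (-0.09, adjusted p = 0.198). DNAJB5 was called higher by 0.38 (adjusted p = 0.0178), and not without PFA-fixed replicate 3 (adjusted p = 0.0546). DNAJB4 overlaps FUBP1 in the gene table, and FUBP1 changed the other way (0.47).

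Of the 25 class C genes, 11 were called higher (44%, with 33.9% over all genes) and 6 lower (24%, with 34.7% over all genes). DNAJC10 (ERdj5), a disulfide reductase of the endoplasmic reticulum, was at 6.25 to 6.52 log2 CPM in PFA-fixed and 7.06 to 7.17 in fresh-frozen libraries, a change of -0.71 ± 0.07 (adjusted p = 3.14e-06 in limma). DNAJC3, an inhibitor of the stress kinase PERK in the same organelle, was chosen after its values were seen and was lower by -0.39 (adjusted p = 9.92e-05). DNAJC8, of the splicing machinery, and DNAJC27, a small GTPase with a J domain, were lower by -0.53 (adjusted p = 2.19e-05) and -0.51 (adjusted p = 0.000193). DNAJC30, a mitochondrial protein known in humans for the repair of complex I, had 0.23, 1.01, 0.63 and 1.34 log2 CPM in PFA-fixed and 1.70, 2.04, 1.91 and 1.77 in fresh-frozen libraries. Its spread in fixed retina was wide, and the change was -1.05 ± 0.26 (adjusted p = 0.00359).

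DNAJC6 (auxilin), which uncoats clathrin vesicles with HSPA8, was lower by -0.37 ± 0.06 (adjusted p = 0.000179 in limma), with 7.17 to 7.34 log2 CPM in PFA-fixed and 7.56 to 7.67 in fresh-frozen libraries. HSPA8 changed by nearly the same amount, and the log2 ratio of HSPA8 to DNAJC6 was 2.82 ± 0.14 in PFA-fixed and 2.80 ± 0.11 in fresh-frozen libraries (SD, n = 4 each). DNAJC5, the cysteine string protein of synaptic vesicles, was not called (-0.11, adjusted p = 0.179). DNAJC13, an endosomal member, was not called either (-0.18, adjusted p = 0.110), but was without fresh-frozen replicate 3 (-0.27, adjusted p = 0.0103). DNAJC18, another membrane member of the endoplasmic reticulum, was called higher by 0.19 (adjusted p = 0.0264), with the sign turned to -0.08 by the rod scaling and the call ended without PFA-fixed replicate 1 or 3 or fresh-frozen replicate 1 or 3 (highest adjusted p 0.0824).

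A further 3 calls in class C ended when libraries were left out singly. DNAJC15 (0.33) fell to 0.21 without PFA-fixed replicate 3, which stood highest at 6.49 log2 CPM, and lost its call there and without PFA-fixed replicate 4 or fresh-frozen replicates 1, 3 or 4. DNAJC25 (0.31; 0.27 to 0.42 with single libraries left out) lost it without PFA-fixed replicates 1, 2 or 3 or fresh-frozen replicates 1, 3 or 4. DNAJC28 (0.26; 0.22 to 0.29 with single libraries left out) lost it without PFA-fixed replicates 2, 3 or 4 or fresh-frozen replicates 1 or 4, and stood at -0.01 with the rod scaling.

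The other uncalled DNAJ genes were DNAJB12, DNAJC1, DNAJC4, DNAJC11, DNAJC14, DNAJC16 and DNAJC19, with changes from -0.21 (DNAJC1) to 0.16 (DNAJC11). DNAJC1, which sits in the membrane of the endoplasmic reticulum, was called without PFA-fixed replicate 2 (-0.32, adjusted p = 0.0178). DNAJB12, of the same membrane, was called without PFA-fixed replicate 2 or fresh-frozen replicate 4 (lowest adjusted p 0.0403).

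The cytosolic chaperonin, a ring of 8 different subunits, was called lower in fixed retina for 7 of its 8 subunit genes (34.7% of all genes were). Their median change was -0.39, and -0.36 with CCT6B, the testis form of 1 subunit. Summed, the genes took 0.0697% to 0.0707% of CPM in PFA-fixed and 0.0983% to 0.100% in fresh-frozen libraries, a narrow range in each group. CCT2 had 5.79, 5.67, 5.59 and 5.57 log2 CPM in PFA-fixed and 6.44, 6.55, 6.52 and 6.55 in fresh-frozen libraries. It was the only subunit lower past 1.5-fold (-0.86 ± 0.07, adjusted p = 6.56e-07 in limma). CCT7 and CCT5 were lower by -0.66 and -0.61 (adjusted p = 4.11e-06 and 3.32e-06), CCT3 by -0.43 (4.32e-05), CCT8 by -0.36 (0.000568), TCP1 by -0.31 (0.000372) and CCT4 by -0.23 (0.00976). CCT4 lost its call after centring on the library medians (-0.15, adjusted p = 0.0672), which leaves 6 of 8 lower.

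CCT6A went the other way. It had 6.89, 6.81, 6.93 and 6.88 log2 CPM in PFA-fixed and 6.63, 6.76, 6.73 and 6.79 in fresh-frozen libraries, a call at the threshold (0.15 ± 0.06, adjusted p = 0.0471 in limma). The fixed libraries lay just above the frozen ones. The call ended without any of PFA-fixed replicates 1, 3 or 4 or fresh-frozen replicates 1, 2 or 3 (highest adjusted p 0.128), and the sign turned to -0.12 with the rod scaling. CCT6B stood near 2 log2 CPM and was not called (0.44 ± 0.28, adjusted p = 0.184), but was called higher by 0.81 after quantile normalization (adjusted p = 0.0150). Leaving out single libraries gave 0.15 to 0.58 for it, with no call.

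Since the subunits enter the ring in equal number, ratios between their transcripts were also compared between the groups. The log2 ratio of CCT6A to CCT2 was 1.10, 1.14, 1.33 and 1.31 in PFA-fixed and 0.19, 0.21, 0.21 and 0.24 in fresh-frozen libraries. The groups were separate, with a shift of 1.01. CCT6A and CCT2 are the subunits with the highest and the lowest change, so this shift follows from the choice of the pair. Over all 8 subunit genes, the log2 range within a library was 1.10 to 1.33 in PFA-fixed and 0.55 to 0.75 in fresh-frozen libraries. In each PFA-fixed library this range is the ratio of CCT6A to CCT2 itself, so it is not a separate result. Without gene lengths, it does not measure the balance between subunits. CCT4 relative to CCT2 was 0.88 ± 0.15 in PFA-fixed and 0.25 ± 0.05 in fresh-frozen libraries (SD, n = 4 each). This pair again holds the subunit with the lowest change. Some subunit genes overlap other genes of the table: CCT5 lies with ATPSCKMT, which was higher by 1.58, and TCP1 with ACAT2, which was lower by -0.69.

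HSPD1 (HSP60), the barrel of the mitochondrial chaperonin, had 6.39, 6.44, 6.47 and 6.50 log2 CPM in PFA-fixed and 7.28, 7.25, 7.34 and 7.25 in fresh-frozen libraries. The spread within each group was small beside the gap, and the change was -0.83 ± 0.06 (adjusted p = 1.51e-07 in limma). HSPE1 (HSP10), its lid, had 5.13, 5.04, 5.16 and 5.06 in PFA-fixed and 5.25, 5.53, 5.29 and 5.51 in fresh-frozen libraries (-0.30 ± 0.09, adjusted p = 0.0105). Both were lower without overlap, HSPD1 by more. The log2 ratio of HSPD1 to HSPE1 was 1.35 ± 0.08 in PFA-fixed and 1.89 ± 0.18 in fresh-frozen libraries (SD, n = 4 each). The pair shares a start region and the gene table lists them as overlapping, so reads between them could be split by the counting.

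Prefoldin, which delivers clients to the cytosolic chaperonin, had 2 of the 4 PFDN genes called higher and none lower (33.9% and 34.7% of all genes). VBP1, a further prefoldin subunit without a PFDN symbol, was measured and not called (-0.12, adjusted p = 0.274). The median change of the PFDN genes was 0.19, which turned to -0.08 with the rod scaling, and it was 0.02 with VBP1 included. PFDN2 had 4.97, 5.26, 5.16 and 5.12 log2 CPM in PFA-fixed and 4.71, 4.74, 4.66 and 4.49 in fresh-frozen libraries, without overlap (0.48 ± 0.09, adjusted p = 0.000761 in limma). PFDN1 was higher by 0.35 (adjusted p = 0.0142), and both lost their call with the rod scaling. PFDN5 (0.02) and PFDN6 (-0.18) were not called, with adjusted p of 0.822 and 0.291. The mean of the prefoldin genes minus the mean of the chaperonin subunits was -1.70 ± 0.02 in PFA-fixed and -2.28 ± 0.07 in fresh-frozen libraries (log2, SD, n = 4 each). This difference was separate between the groups and does not change when a whole library is shifted by a constant.

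**Figure D3:**
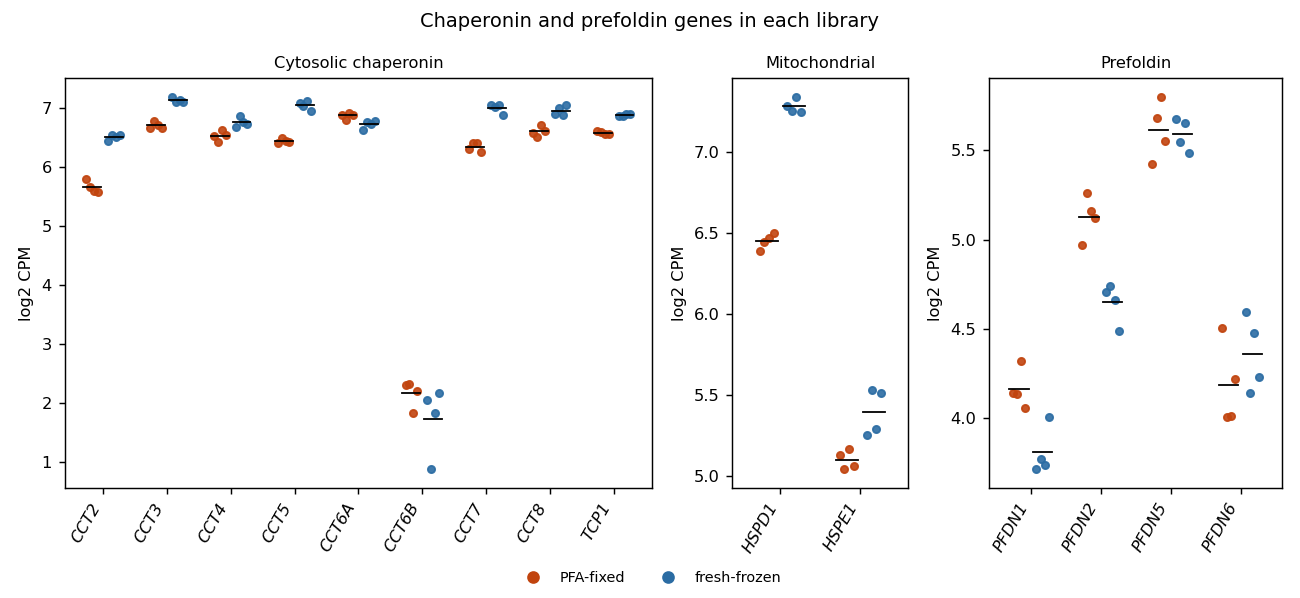
Level (log2 CPM) of cytosolic chaperonin, mitochondrial chaperonin and prefoldin genes in each library, PFA-fixed left of fresh-frozen for each gene, with 4 points a group and the group mean as a bar. CCT2, CCT7, CCT5 and HSPD1 are lower in every PFA-fixed library; CCT6A lies just above its fresh-frozen libraries (0.15, but -0.12 with the rod scaling).

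Small heat shock proteins hold denatured proteins without using ATP. They had the lowest median of the families (-1.52): 4 of 5 were lower and 1 higher, all past 1.5-fold. By that rule 14.1% of all genes were lower and 11.9% higher. HSPB1 (HSP27), induced by stress in muscle, vessels and glia, had 4.73, 4.76, 4.45 and 4.99 log2 CPM in PFA-fixed and 6.59, 6.30, 6.64 and 6.37 in fresh-frozen libraries. Every fixed library was more than 1 log2 unit below the frozen ones, and the change was -1.74 ± 0.12 (adjusted p = 1.25e-07 in limma). HSPB6 (HSP20), of smooth and striated muscle, had 4.17, 4.47, 4.49 and 4.18 in PFA-fixed and 6.09, 5.77, 5.78 and 5.77 in fresh-frozen libraries (-1.52 ± 0.11, adjusted p = 2.25e-07).

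HSPB8, which works with BAG3 in selective autophagy, had 3.65, 3.51, 3.56 and 3.84 log2 CPM in PFA-fixed and 5.41, 4.50, 4.86 and 4.81 in fresh-frozen libraries (-1.25 ± 0.17, adjusted p = 4.36e-05 in limma). HSPB7, a form of heart and skeletal muscle, had -3.12, -2.28, -2.47 and -1.49 in PFA-fixed and 1.78, 0.58, 0.90 and 1.53 in fresh-frozen libraries. It is the only chaperone gene under 1 CPM in any library. PFA-fixed replicate 1 sits on the lowest value of the table (0.115 CPM, worth 2.01 reads at the mean depth). That value is the same in all 8 libraries although their depths differ, so it is a floor and not a count of reads. The change was -3.54 ± 0.45 (adjusted p = 2.37e-05), -2.79 after quantile normalization and -1.46 on the scale of log2(CPM + 1), so its size is uncertain.

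Fresh-frozen replicate 1, the library with the muscle markers, was the highest of its group for HSPB6, HSPB7 and HSPB8. Without it the changes were -1.70 for HSPB1, -1.44 for HSPB6, -1.08 for HSPB8 and -3.34 for HSPB7. The 8 pericyte and smooth muscle markers summed to 446 to 562 CPM in PFA-fixed and 1783 to 2553 CPM in fresh-frozen libraries, and the 8 Müller glia markers, of which 5 were lower, to 3494 to 4753 CPM in PFA-fixed and 6585 to 9035 CPM in fresh-frozen libraries. Their part in these results was not tested.

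HSPB2, first known as a muscle protein, moved against its relatives. Its level was 4.86, 4.72, 4.78 and 4.84 log2 CPM in PFA-fixed and 3.50, 3.40, 3.36 and 3.70 in fresh-frozen libraries. All fixed libraries were higher by more than 1 log2 unit (1.31 ± 0.11, adjusted p = 5.67e-07 in limma). The log2 ratio of HSPB2 to HSPB1 was 0.07 ± 0.21 in PFA-fixed and -2.98 ± 0.26 in fresh-frozen libraries (SD, n = 4 each). HSPB2 lies beside CRYAB (alpha-B crystallin, also a small heat shock protein), which had 5.61, 5.65, 5.96 and 5.79 log2 CPM in PFA-fixed and 6.56, 6.09, 6.21 and 6.19 in fresh-frozen libraries (-0.51, adjusted p = 0.00155). The neighbours thus changed in opposite directions.

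BAG proteins bind HSP70 through a shared domain and differ in what they recruit. BAG5, which carries several such domains, had 7.91, 8.04, 8.12 and 8.03 log2 CPM in PFA-fixed and 6.89, 7.06, 6.98 and 7.01 in fresh-frozen libraries. The fixed libraries were all higher by nearly 1 log2 unit or more (1.04 ± 0.07, 2.06-fold, adjusted p = 6.73e-08 in limma). BAG3, the stress-inducible partner of HSPB8, had 4.50, 4.41, 4.44 and 5.13 in PFA-fixed and 5.94, 5.87, 6.42 and 6.04 in fresh-frozen libraries (-1.44 ± 0.17, adjusted p = 1.11e-05). PFA-fixed replicate 4 was nearest to the frozen libraries and still below them.

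BAG1, which links HSP70 to the proteasome, was higher by 0.33 (adjusted p = 0.00511; 0.07 and not called with the rod scaling), with fresh-frozen replicate 1 (6.55) among the fixed libraries (6.54 to 6.70). BAG6, which guards membrane proteins before insertion, was lower by -0.27 (adjusted p = 0.00246). It overlaps APOM, which changed by 0.75. BAG2 (-0.09, adjusted p = 0.595), an inhibitor of the ubiquitin ligase CHIP, and BAG4 (-0.04, adjusted p = 0.652), a silencer of tumour necrosis factor receptors, were not called. Summed, the BAG genes took 0.0656% to 0.0713% of CPM in PFA-fixed and 0.0639% to 0.0682% in fresh-frozen libraries. The ranges overlapped.

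FKBP proteins are prolyl isomerases, several with chaperone roles. Of 11 genes, 3 were called higher (33.9% of all genes were) and 6 lower (34.7% of all genes), with a median of -0.30. FKBP10 (FKBP65), a chaperone of collagen in the endoplasmic reticulum, had 1.39, 2.07, 1.33 and 1.47 log2 CPM in PFA-fixed and 4.94, 5.07, 4.89 and 5.0 in fresh-frozen libraries. The fall of 3.41 log2 units was among the 2 largest of all chaperone genes (-3.41 ± 0.17, adjusted p = 1.07e-08 in limma). FKBP9, of the same compartment, had 4.80, 4.87, 4.98 and 4.52 in PFA-fixed and 6.43, 6.33, 6.19 and 6.38 in fresh-frozen libraries (-1.54 ± 0.10, adjusted p = 1.15e-07).

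SERPINH1 (HSP47), the collagen-specific chaperone outside the symbol set, had 4.20, 4.27, 4.43 and 3.71 log2 CPM in PFA-fixed and 7.15, 7.14, 7.16 and 7.14 in fresh-frozen libraries (-3.00, adjusted p = 3.99e-09 in limma). It was lower in every fixed library, as FKBP10 was. The 11 sclera and fibroblast markers, which include COL1A1, COL1A2 and COL3A1, fell with them (196 to 221 CPM in PFA-fixed, 8582 to 11542 CPM in fresh-frozen libraries). Of these markers, DPT was at the lowest value of the table in PFA-fixed replicates 1 and 3. Their part in the change of FKBP10, FKBP9 and SERPINH1 was not tested.

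FKBP2, another isomerase of the endoplasmic reticulum, was higher at 5.59 to 5.91 log2 CPM in PFA-fixed against 4.73 to 5.03 in fresh-frozen libraries (0.89 ± 0.10, adjusted p = 9.42e-06 in limma). FKBP1A (FKBP12), the target of the drugs FK506 and rapamycin, was lower by -0.70 (adjusted p = 0.000615), with frozen libraries spread from 5.33 to 5.87. FKBP8, of the outer mitochondrial membrane, was lower by -0.46 (adjusted p = 0.000152). FKBP4 (FKBP52), the HSP90 co-chaperone of steroid receptors, was lower by -0.21 (adjusted p = 0.0169; 0.0511 without fresh-frozen replicate 1). FKBP3, a nuclear member, was lower by -0.40 (adjusted p = 0.00560), and FKBP11 (-0.30) and FKBP1B (0.27) were not called. FKBP15, an endosomal protein, was called higher by 0.23 (adjusted p = 0.00681) and stood at -0.03 with the rod scaling. FKBP7 was called higher by 0.45 (adjusted p = 0.0421), which ended without any of PFA-fixed replicates 1, 2 or 3 or fresh-frozen replicates 2, 3 or 4 (highest adjusted p 0.136).

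**Figure D4:**
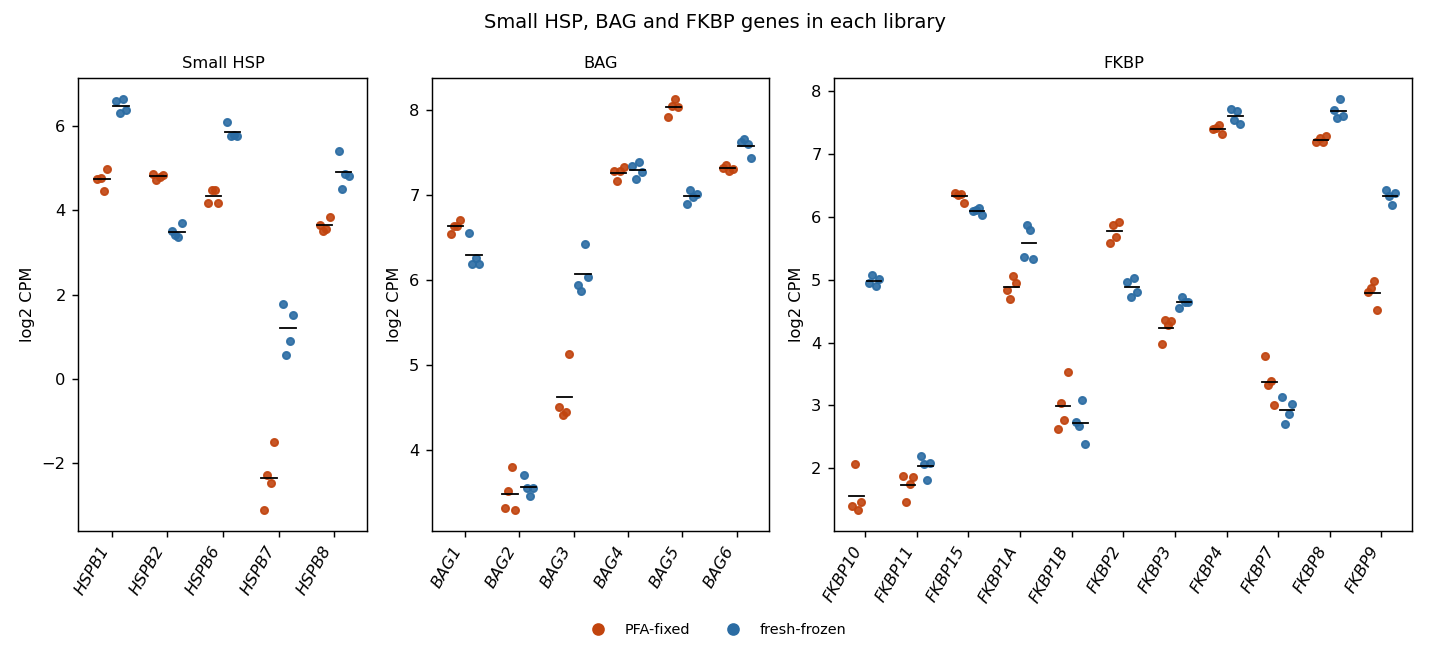
Level (log2 CPM) of small heat shock protein, BAG and FKBP genes in each library, PFA-fixed left of fresh-frozen for each gene, with 4 points a group and the group mean as a bar. HSPB1, HSPB6, HSPB7, HSPB8, BAG3, FKBP9 and FKBP10 are lower and HSPB2, BAG5 and FKBP2 higher in every PFA-fixed library.

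By compartment, 10 of the 19 measured genes listed for the endoplasmic reticulum were called lower (34.7% of all genes were) and 4 higher (33.9% of all genes), with a median change of -0.30. The list counts FKBP8, which is found at the outer mitochondrial membrane and also at the endoplasmic reticulum. Lower were HSPA5 and its partners DNAJB9, DNAJB11, DNAJC3 and DNAJC10, while HSP90B1 and DNAJC1 were not called. The 4 higher ones were FKBP2, FKBP7, DNAJC18 and DNAJC25. SEC63, a J-domain protein of that organelle outside the symbol set, was also called higher, by 0.18 (adjusted p = 0.0203 in limma). It was chosen after its values were seen. Of the 10 mitochondrial genes, 3 were higher, 4 were lower and 3 were not called (median -0.10), shares near those of all genes. The 4 lower ones include HSPA9, HSPD1 and HSPE1, which form the folding line of the matrix.

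Of 19 chaperones known as targets of the heat shock factor HSF1, 16 were measured, and HSPA1A, HSPA1B and HSPA6 were not analysed here. Of these 16, 11 were called lower, 2 higher and 3 not called (median -0.33), where 34.7% of all genes were called lower and 33.9% higher. The lower ones include HSPB1, BAG3, HSPD1, HSPH1 and DNAJB1, and the 2 higher ones are CHORDC1 and DNAJA1. HSF1 itself was called higher by 0.46 (adjusted p = 0.000834 in limma), which became 0.20 and no call with the rod scaling.

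Beyond the symbol set, 50 of 56 further folding factors were measured. Of these, 14 were called higher (28%, with 33.9% over all genes), 22 lower (44%, with 34.7% over all genes) and 14 not called. Their median change was -0.08, beside -0.02 for all genes. AIPL1, the photoreceptor co-chaperone of phosphodiesterase, had 8.81, 8.86, 8.74 and 8.73 log2 CPM in PFA-fixed and 9.27, 9.30, 9.46 and 9.09 in fresh-frozen libraries. It was lower without overlap (-0.50, adjusted p = 0.000137 in limma). Of the 22 rod markers, 11 were called higher (50%) and 4 lower (18.2%). PDE6B, a catalytic subunit of that phosphodiesterase and chosen after its values were seen, was higher by 1.11 (adjusted p = 3.69e-07). This was the largest rise of the 22 rod markers. Of the other PDE6 genes among them, also chosen so, PDE6A was higher by 0.48 (adjusted p = 0.000627). PDE6G was not called (0.14, adjusted p = 0.136).

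The largest changes of these factors other than SERPINH1 were in HSF4, a heat shock factor of the lens (-2.52, adjusted p = 5.90e-07 in limma), TBCE, a tubulin folding cofactor (1.13, adjusted p = 7.31e-08), and P4HB, the protein disulfide isomerase (-1.0, adjusted p = 8.74e-07). The 3 measured of 7 lens markers summed to 36.3 to 50.5 CPM in PFA-fixed and 39.0 to 52.7 CPM in fresh-frozen libraries. Of these markers 1 was called higher and none lower, and their part in the change of HSF4 was not tested. TRAP1, the HSP90 of mitochondria, was lower by -0.32 (adjusted p = 0.00444). Chosen after their values were seen, ST13 (HIP), which steadies the HSP70 cycle, was lower by -0.91 (adjusted p = 1.93e-07), and SIL1, an exchange factor of BiP, was higher by 0.88 (adjusted p = 7.80e-07), against the direction of HSPA5. HYOU1, a further exchange factor of BiP chosen in the same way, was called lower by -0.19 (adjusted p = 0.0489), in the direction of HSPA5, with overlapping groups. PDCL, which works with the chaperonin in folding the G protein beta subunit, was also chosen so and was higher by 0.76 (adjusted p = 9.20e-07).

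Together the 92 genes took 1.30% ± 0.08 of the summed CPM in PFA-fixed and 1.41% ± 0.05 in fresh-frozen libraries (SD, n = 4 each). The shares were lower in every fixed library for HSP70, DNAJ, the HSP90 co-chaperones, both chaperonins, the small heat shock proteins (0.00792% to 0.00913% in PFA-fixed, 0.0172% to 0.0231% in fresh-frozen libraries) and FKBP (0.0524% to 0.0539% in PFA-fixed, 0.0700% to 0.0769% in fresh-frozen libraries). HSP90, at 0.464% to 0.590% in PFA-fixed and 0.468% to 0.548% in fresh-frozen libraries, overlapped. Shares for HSP110, prefoldin and BAG overlapped too. The total CPM was larger in every PFA-fixed library (1021460 to 1058310) than in every fresh-frozen one (947376 to 975641). This alone lowers each share of the fixed libraries. The mean log2 CPM of the DNAJ genes and of the HSP90 co-chaperones was not lower in fixed retina (5.73 and 6.33 in PFA-fixed, 5.68 and 6.19 in fresh-frozen libraries).

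**Figure D5:**
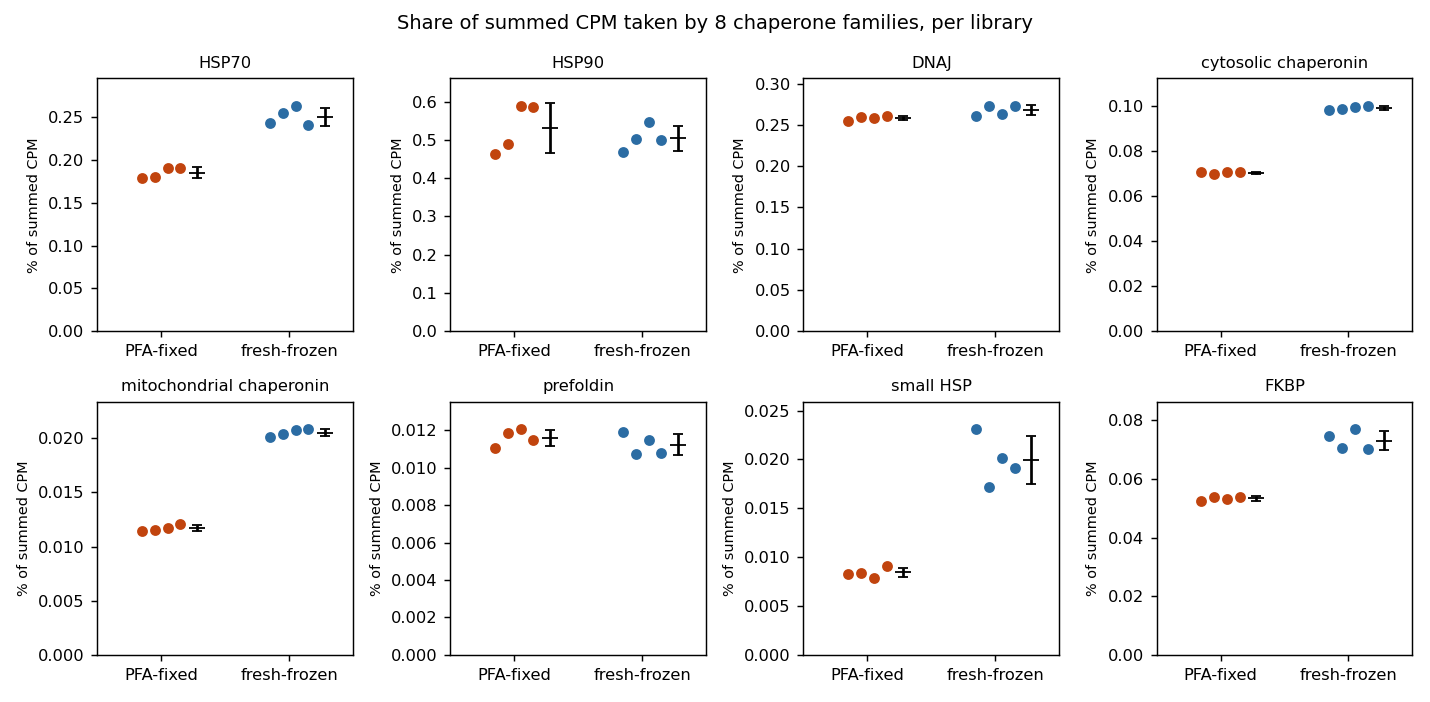
Share of the summed CPM (percent) taken by 8 of the chaperone families in each library, PFA-fixed left of fresh-frozen, with 4 points a group and the mean with its SD beside them; each panel has its own axis from 0. The HSP70, chaperonin, small heat shock protein and FKBP shares are separate between the groups, and the HSP90 share overlaps.

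Calls held for some genes under every processing tried. Among the 27 higher genes 12 kept their call and sign under every setting: HSPA14, CHORDC1, DNAJA1, DNAJC2, DNAJC7, DNAJC12, DNAJC17, DNAJC21, DNAJC24, HSPB2, BAG5 and FKBP2. Among the 41 lower genes 37 did, of which HSPB7 and DNAJC30 were dropped by the minimum mean of 3 log2 CPM and so could not be tested under it. Another measured gene overlaps 19 of the chaperone genes in the annotation, and the strand setting of the counting is not given in the sources used here, so reads of such pairs may be mixed.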

How the data were processed

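Total RNA libraries of 4 PFA-fixed and 4 fresh-frozen dog retinas were compared. The authors deposited one table of log2 CPM (log2 of library-scaled counts) for 12824 genes named by symbol. The submitters' processing notes name edgeR, limma and kallisto 0.48.0, a pseudo-aligner. Reference and strand setting: not given in the sources used here. All genes exceeded 1 CPM in at least 4 libraries, and the lowest value was 0.115 CPM. The linear values summed to 947376 to 1058310 per library. The sums of the PFA-fixed libraries exceed what scaling to library size alone can give, so the values hold a further factor per library.

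The test was limma 3.58.1 in R 4.3.3 with an intensity trend on the deposited log2 values, with the preparation as the only term. P-values were adjusted by Benjamini-Hochberg across 12824 genes (threshold 0.05), with limma's treat at a 1.5-fold minimum beside it. The step was tested on simulated data in which few genes changed, unlike these data, where 68.7% of all genes were called. That test therefore does not bear on the share of genes called here. Effective depth was estimated from the spacing of values under 1 CPM. Of values up to 20 reads, 49.3% to 70.0% were whole within 0.1 of a read, beside 20% by chance. Reads could therefore not be recovered, and count models were not applied. Family medians and shares carry no test.

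The chaperone genes and the gene and marker lists were chosen with earlier results of these data known. The rule for named genes takes all genes of the HSP70, HSP110, HSP90, co-chaperone, chaperonin, prefoldin, BAG and small heat shock groups. In each DNAJ class and in FKBP it takes the 3 genes with the highest mean, the 4 largest called rises and the 4 largest called falls, and it adds DNAJC5 and DNAJC6. Of the pathway genes it takes the 4 largest called changes and 5 listed genes that were measured. Genes named after their values were seen are said to be so, apart from those given only in lists or for their call changes, and FKBP3, FKBP11 and FKBP1B. Of the 92 symbols, 90 matched the gene table of the assembly UU_Cfam_GSD_1.0, used only for neighbouring genes. Replicate numbers were not used as a block: deviations of same-numbered libraries did not correlate in every pair.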

Additional observations from a re-analysis of the deposited data

Results flagged for a closer look

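Of 208 sets of 4 libraries (each chaperone gene, each family share and the share of all chaperone genes, in each group), 9 held a library that stood apart from the other 3 by Dixon's criterion, where chance gives about 1 in 20. PFA-fixed libraries made up 5 of the 9 and fresh-frozen libraries 4.

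PFA-fixed replicate 4 was apart in 4 genes: BAG3 at 5.13 log2 CPM (4.41 to 4.50 in the other PFA-fixed libraries), CHORDC1 at 5.75 (6.01 to 6.05), DNAJC5 at 6.59 (6.75 to 6.78) and FKBP15 at 6.22 (6.35 to 6.37). PFA-fixed replicate 2 was apart in DNAJC1, at 5.49 log2 CPM against 5.02 to 5.09. Fresh-frozen replicate 1 was apart in HSPB6, at 6.09 (5.77 to 5.78 for its group otherwise). Fresh-frozen replicate 2 was apart in DNAJC25, at 4.19 against 3.76 to 3.79, and in the HSP110 share, at 0.0792% of summed CPM against 0.0717% to 0.0725%. Fresh-frozen replicate 4 was apart in HSPA4, at 8.02 against 8.19 to 8.20.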

How the results depend on the processing

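The alternatives were limma without trend, quantile normalization, centring on the library median or on the rod markers, a minimum mean of 3 log2 CPM, log2(CPM + 1), the replicate block and leaving out each library; 55 of 92 chaperone genes kept their call and direction under each that measured them (the minimum mean drops 5 genes, HSPB7 and DNAJC30 of the 55 among them). Rod centring gave 12 called higher, 55 lower, and 4 higher and 19 lower past 1.5-fold. Of all 12824 genes it called 2629 higher and 5984 lower, and those past 1.5-fold were not counted under it. It set the medians of HSP70 to -0.67, HSP90 to -0.25, DNAJ to -0.36, the cytosolic chaperonin to -0.62 and prefoldin to -0.076. It reversed HSP90B1 (-0.25), HSPA4L (-0.021), HSPA4 (-0.20), DNAJC28 (-0.0098), DNAJA4 (-0.032), DNAJA3 (-0.040), DNAJC18 (-0.077), CCT6A (-0.12) and FKBP15 (-0.031); by construction it lowers every gene by the mean change of the rod markers. Quantile normalization gave medians of -0.16 for HSP90, 0.055 for DNAJ, -0.40 for the chaperonin and 0.29 for prefoldin, and reversed HSP90B1 (-0.19); the cause was not tested. The chaperonin median was -0.28 centred on library medians and -0.39 with the minimum mean, which drops CCT6B.

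Leaving out single libraries gave 19 to 24 called higher, 40 to 42 lower, and 5 to 7 higher and 12 to 13 lower past 1.5-fold (5 higher without PFA-fixed replicate 4). Medians ran from -0.44 to -0.38 for HSP70, -0.02 to 0.03 for HSP90, -0.12 to -0.07 for DNAJ, -0.39 to -0.33 for the chaperonin and 0.13 to 0.22 for prefoldin. The replicate block gave 25 higher and 40 lower; same-numbered libraries correlated at -0.09 to 0.22, so the numbers were not taken as pairs. Depth limits genes at low values such as HSPB7, and no count intervals can be given.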
